A study of Mus musculus with 3 samples.

Results

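The domains described here were 100-kb windows of the mouse autosomes in which under 50% of the CpG calls were methylated in wild-type (WT) spermatogonia, whereas the median of the other windows was 0.768 as a fraction. The autosomes were cut into 24639 non-overlapping windows. A window was tested when each of the 3 libraries gave it at least 100 calls, where a call is one read at one CpG, and this left 23820 windows. The methylation level of a window was its methylated calls divided by all its calls, as a fraction. The domains were the 894 tested windows (3.75%) with a WT level under 0.5. They were separated by density into 184 CpG-dense windows, with at least 15 distinct CpG sites listed per kb, and 710 other windows (3.08% of the tested windows of lower density). After the values had been seen, the other windows were divided further, at 6 listed CpG per kb, into 411 intermediate and 299 CpG-poor windows, since the mutants behaved differently in them. Because the windows were chosen by the WT level, WT levels and differences from WT are given as a description and were not tested.

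The libraries came from spermatogonia of C57BL6/J mice at postnatal day 7, sorted with an antibody against the surface protein EpCAM. The mutant lines had been backcrossed to this strain, and 1 file, taken as 1 library, was used for each genotype, namely WT, *Pld6* KO or *Dnmt3L* KO. All 3 were made by post-bisulfite adaptor tagging, in which adaptors are added after bisulfite has converted the unmethylated cytosines. The study's WT category took in *Pld6* heterozygotes and *Dnmt3l* heterozygotes as well as *Pld6* wild types, and which of these gave the WT library is not given in the sources used here. The study had more than 1 replicate in each of its categories (WT, *Pld6* KO and *Dnmt3L* KO), and those beyond the 3 files were not analysed here. With 1 library per genotype, no difference between genotypes has a replicate check, and the 95% intervals quoted (Wilson) cover counting error only. Calls on the same read are not independent, so the true intervals are wider.

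In male germ cells the genome is first stripped of methylation and then methylated anew before birth. DNMT3L is a cofactor of the *de novo* methyltransferases and acts across the genome in this step. PLD6 is a mitochondrial nuclease needed to make PIWI-interacting RNAs (piRNAs), which guide methylation to a subset of retrotransposons. CpG islands, the CpG-rich stretches at many gene starts, escape methylation in most cell types, and regions that hold many of them can therefore have low levels on average.

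The WT, *Pld6* KO and *Dnmt3L* KO libraries held 43757722, 64076569 and 19289688 calls, so levels in the *Dnmt3L* KO library were the least precise. A CpG-dense low window held a median of 4563 WT calls, an intermediate one 2817 and a CpG-poor one 691. As a check of the sorted cells, the starts of 14 imprinted genes that are methylated on the maternal copy in somatic tissue were examined within 500 bp. Male germ cells lack this mark. Of these starts, 12 had WT levels of 0.231 or lower, and the other 2, *Mest* at 0.96 and *Snrpn* at 0.313, rested on 25 and 16 calls at 10 and 5 CpG sites. The *Mest* start was high in *Pld6* KO too, at 0.889 on 54 calls. The starts of 4 genes imprinted by methylation of the paternal copy were low as well, at 0.0144 for *Zdbf2*, 0.15 for *H19*, 0.0101 for *Rasgrf1* and 0.1 for *Meg3*, although male germ cells carry that mark. Whether the marked regions lie within 500 bp of the starts was not examined for either list. A low start therefore does not by itself show the state of the mark, and the check of the cells is a limited one. Among the 894 domains, 22 took over 20% of their WT calls from sites with 21 or more calls in that library, and they are named where a value rests on them.

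Stretches of 250 bases show how different the sequence of these windows was. The following 4 are the most CpG-rich stretches outside exons and repeat-masked sequence in 4 of the domains with at least 5 calls per library, read on the plus strand of mm10 from the reference genome, with CpG in capitals. The first lies just upstream of the start of *Hoxa5*, in the CpG-dense domain with the lowest WT level. The second lies inside *Zic4*, 15.8 kb from the start of *Zic1*, in an intermediate domain. The last pair is intergenic, 139.0 kb from the start of *Esp31* and 374.0 kb from that of *Klra2*, in the 2 longest runs of CpG-poor domains.

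Hoxa5, chr6:52204594-52204843: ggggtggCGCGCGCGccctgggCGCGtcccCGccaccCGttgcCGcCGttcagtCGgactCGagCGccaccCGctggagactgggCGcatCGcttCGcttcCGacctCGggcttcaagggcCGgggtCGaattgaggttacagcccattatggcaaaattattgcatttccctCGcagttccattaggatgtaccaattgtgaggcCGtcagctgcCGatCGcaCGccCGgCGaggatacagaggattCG
Zic1 and Zic4, chr9:91381439-91381688: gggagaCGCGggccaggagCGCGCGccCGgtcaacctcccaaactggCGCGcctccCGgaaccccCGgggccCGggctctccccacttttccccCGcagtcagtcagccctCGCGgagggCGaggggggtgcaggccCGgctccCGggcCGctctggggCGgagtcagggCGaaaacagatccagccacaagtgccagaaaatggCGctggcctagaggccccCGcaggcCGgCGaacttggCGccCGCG
Esp31, chr17:38778820-38779069: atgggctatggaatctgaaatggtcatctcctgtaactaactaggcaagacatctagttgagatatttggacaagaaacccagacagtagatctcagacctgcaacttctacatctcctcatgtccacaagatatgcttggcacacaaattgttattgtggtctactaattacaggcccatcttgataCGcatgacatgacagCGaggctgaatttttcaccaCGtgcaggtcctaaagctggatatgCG
Klra2, chr6:130873034-130873283: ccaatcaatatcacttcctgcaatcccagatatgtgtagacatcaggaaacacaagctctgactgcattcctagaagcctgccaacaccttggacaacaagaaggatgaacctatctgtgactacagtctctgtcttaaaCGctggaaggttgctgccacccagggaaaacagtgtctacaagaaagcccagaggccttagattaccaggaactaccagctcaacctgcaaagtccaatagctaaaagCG

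The *Hoxa5* stretch held 29 CpG sites and the *Zic* stretch 27, whereas the *Esp31* stretch held 4 and the *Klra2* stretch 2. At the *Hoxa5* stretch 6 of 108 WT calls, 1 of 82 *Pld6* KO calls and 1 of 32 *Dnmt3L* KO calls were methylated. At the *Zic* stretch 0 of 26 WT calls, 0 of 50 *Pld6* KO calls and 0 of 11 *Dnmt3L* KO calls were methylated, and the 95% interval of the WT level reached 0.129. Further stretches picked in the same way are not shown. One in a CpG-dense domain (chr15:102900001-103000000) held 29 CpG sites, with 2 of 175, 1 of 102 and 0 of 36 calls methylated in the same order. One in an intermediate domain (chr6:114500001-114600000) held 11 CpG sites, with 4 of 11, 4 of 12 and 0 of 6 calls methylated. The CpG-poor stretches were, like that intermediate one, only partly methylated in WT. The *Esp31* stretch had 3 methylated calls of 10 in WT, 3 of 6 in *Pld6* KO and 0 of 17 in *Dnmt3L* KO. The *Klra2* stretch had 7 of 13 in WT, 3 of 5 in *Pld6* KO and 0 of 5 in *Dnmt3L* KO. At both stretches the 95% interval of WT overlapped that of each mutant, so the calls were too few to set either mutant apart from WT.

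Low windows were most frequent at the CpG-dense end of the genome. Of 740 CpG-dense windows 24.9% were low, against 3.31% of 12407 intermediate and 2.8% of 10673 CpG-poor windows. In steps of density the share was 7.58% below 3 CpG per kb, 1.8% from 6 to 9, 7.73% from 12 to 15, 40.5% from 18 to 21 and 81.2% (13 of 16 windows) from 21 upwards. The domains were thus found at both ends of the range of listed density. Counted by all CpG sites of the reference, CpG-poor domains were no poorer in CpG than the other CpG-poor windows (medians of 5.59 and 5.48 per kb). By listed sites they were (3.68 and 4.06 per kb). The median GC content of the CpG-dense, intermediate and CpG-poor domains was 50.1%, 44.2% and 38.2%, close to that of the other tested windows of the same kind (50.3%, 43.9% and 38.6%), so GC content did not set them apart from windows of similar density.

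**Figure D1:**
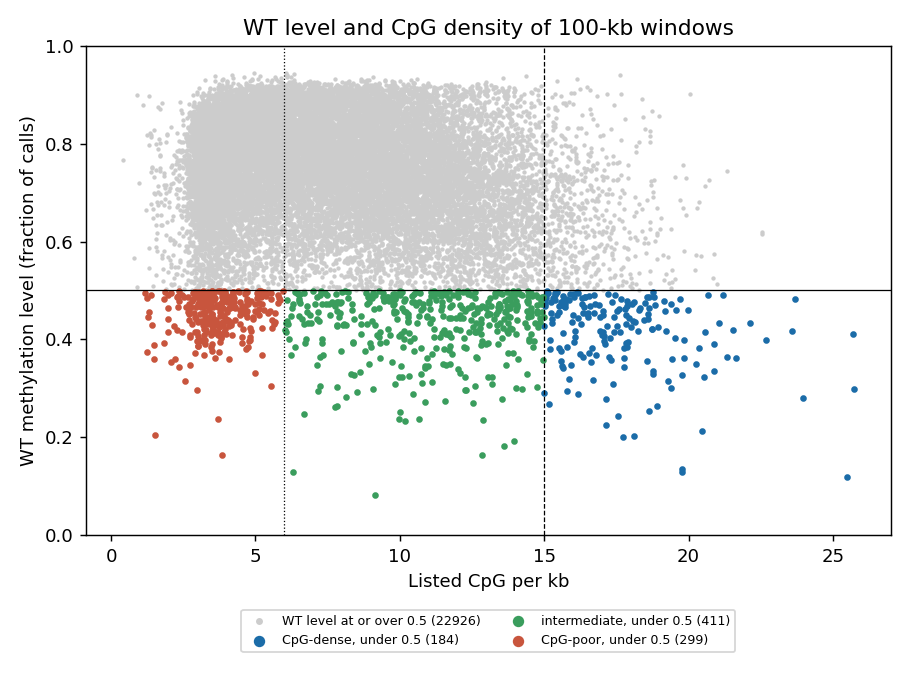
WT methylation level (fraction of calls, y axis) against listed CpG per kb (x axis) for 23820 windows of 100 kb, each a point, with the 894 windows under 0.5 coloured by kind. The horizontal line is the 0.5 threshold, the dashed line 15 and the dotted line 6 CpG per kb; the coloured points spread over the whole density range, from 1.17 to 25.73 CpG per kb.

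The domains also differed in their genes. Protein-coding gene starts numbered a median of 5.5 in a CpG-dense domain, 2 in an intermediate and 0 in a CpG-poor one, against 3, 1 and 0 in the other windows of each kind. No coding start lay in 2 of 184, 22 of 411 and 159 of 299 domains. In all, 2432 of 20510 coding starts (11.9%) lay in a domain, comprising 38.4% of those in CpG-dense, 8.45% of those in intermediate and 5.88% of those in CpG-poor windows. Repeat-masked sequence made up a median of 25.3% of CpG-dense, 31.3% of intermediate and 50.8% of CpG-poor domains, against 24.1%, 26.7% and 39.8% of the rest. Among CpG-poor windows, 0.292% were low where under 30% of the sequence was masked and 14.1% where 60% or more was masked.

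The lowest CpG-dense domains were the *Hox* clusters, whose transcription factors set position along the body axis. Of 39 *Hox* genes 38 (97.4%) started in a domain, against 11.9% of all coding genes, and the exception was *Hoxb13*, which lies apart from its cluster. The window of *Hoxa5*, *Hoxa6*, *Hoxa3*, *Hoxa7* and *Hoxa9* (chr6:52200001-52300000) had a level of 0.118 in WT, 0.155 in *Pld6* KO but 0.0427 in *Dnmt3L* KO. That of *Hoxc13* to *Hoxc5* (chr15:102900001-103000000) had 0.129, 0.18 and 0.0363 in the same order. That of *Evx2* and *Hoxd13* to *Hoxd10* (chr2:74600001-74700000) had 0.135, 0.158 and 0.0499. Over the 8 low windows with *Hox* genes WT lay between 0.118 and 0.302, *Pld6* KO between 0.155 and 0.354 and *Dnmt3L* KO between 0.0363 and 0.115, so WT and *Pld6* KO overlapped widely and the *Dnmt3L* KO windows lay at or below the lowest WT window.

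The other CpG-dense domains among the 10 lowest held genes of several kinds. One held 11 genes of the gamma protocadherin cluster, among them *Pcdhga6*, *Pcdhga7*, *Pcdhgb4*, *Pcdhga8* and *Pcdhgb5* (WT 0.2, *Pld6* KO 0.247, *Dnmt3L* KO 0.0525). One held *Klf1*, an erythroid transcription factor, with *Dnase2a*, *Mast1* and *Rtbdn* (0.213, 0.258 and 0.0891). Others held *Zic5* and *Zic2* (0.225, 0.267 and 0.0889), and *Six3* and *Six2*, regulators of eye, forebrain and kidney development (0.264, 0.292 and 0.123). In each of these windows *Pld6* KO was slightly above WT and *Dnmt3L* KO was at less than 0.5 of the WT level.

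Transcription factors of development outside the *Hox* clusters were frequent as well. Of 254 such genes 137 (53.9%) started in a domain, 42 of them in CpG-dense and 95 in intermediate ones. The 124 domains that held them had median levels of 0.416 in WT, 0.467 in *Pld6* KO but 0.174 in *Dnmt3L* KO. Of 75 genes for signalling and patterning ligands 16 (21.3%) started in a domain. The shares of *Zfp* genes (48 of 350, 13.7%) and of genes with roles in spermatogonia (1 of 19, 5.26%) were near or below that of all genes. The spermatogonial exception was *Nanos2*, which keeps spermatogonial stem cells undifferentiated, in a window at 0.383 in WT, 0.476 in *Pld6* KO but 0.146 in *Dnmt3L* KO. Of 22 genes of the piRNA pathway only *Pnldc1*, which encodes a trimmer of piRNA 3′ ends, started in a domain (WT 0.495).

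A second group of intermediate domains held tandem arrays of genes. Of 67 genes taken as replication-dependent histone genes, most of which supply histones in S phase, 64 (95.5%) started in a domain. Of the 64, 56 lay in intermediate domains. The genes that did not start in a domain were *Hist1h2ba*, *Hist1h2aa* and *H1f0*. The window of *Hist1h4h*, *Hist1h2af*, *Hist1h3g*, *Hist1h2bh* and *Hist1h3f* (chr13:23500001-23600000) had a level of 0.181 in WT, 0.228 in *Pld6* KO but 0.0371 in *Dnmt3L* KO. Of 56 clustered protocadherin genes, adhesion molecules of which each neuron expresses a selection, 52 (92.9%) started in a domain, and the 4 that did not were *Pcdhac2*, *Pcdhgc3*, *Pcdhgc4* and *Pcdhgc5*. The window of *Pcdha1* to *Pcdha5* (chr18:36900001-37000000) had 0.192, 0.215 and 0.0386. Over the 8 low windows with protocadherin genes, WT lay between 0.192 and 0.456, *Pld6* KO between 0.215 and 0.429 and *Dnmt3L* KO between 0.0272 and 0.105. The *Dnmt3L* KO range thus lay below that of WT without overlap, and every tested window was lower in *Dnmt3L* KO than in WT.

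CpG-poor domains held another set of genes, large clustered families that differ greatly between mammalian species. Vomeronasal receptor genes, which detect pheromones, started in a domain in 58 of 276 cases (21%), 55 of them CpG-poor, whereas for olfactory receptor genes the count was 52 of 1086 (4.79%), below that of all genes. Further families were counted after the values had been seen, and their counts are to be read against 11.9% of all coding starts and 5.88% of those in CpG-poor windows. Of 11 *Klra* genes, which encode receptors of natural killer cells, 9 started in a CpG-poor domain. So did 6 of 11 *Skint* genes, 9 of 15 *Esp* genes, which encode peptides secreted as pheromones, 5 of 8 *Mrgprb* and *Mrgprx* genes, 49 of 115 *Ighv* segments of the immunoglobulin heavy chain and 11 of 25 *Scgb1b* and *Scgb2b* genes. Of 7 *Fpr* genes 5 started in a domain, 2 of them CpG-poor. Other families had smaller shares, with 1 of 7 *Mrgpra*, 3 of 15 *Cyp2c* and 2 of 9 *Cyp3a* genes. No defensin gene (0 of 62), *Speer* gene (0 of 11) or *Prame* family gene (0 of 15) started in a domain, and for the 2 smaller lists 0 is little below the share of all genes.

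The 5 low windows with *Klra* genes lay between 0.405 and 0.472 in WT. They lay between 0.382 and 0.439 in *Pld6* KO, but between 0.0356 and 0.0853 in *Dnmt3L* KO. The 7 with *Esp* genes lay between 0.406 and 0.467, between 0.296 and 0.411, and between 0.0277 and 0.1. The 12 with *Ighv* segments had medians of 0.467, 0.376 and 0.0782. WT and *Pld6* KO overlapped for *Klra* and *Esp* windows, while *Dnmt3L* KO lay far below both. The *Pld6* KO level was below WT in all 5 *Klra*, all 6 *Skint*, all 7 *Esp*, all 12 *Ighv* and 21 of 25 *Vmn2r* windows. Among all CpG-poor domains this share was 76.6%, and among all CpG-poor windows 67.9%. The *Vmn2r* windows thus lay near the share of the domains. The level was also lower in all 4 *Mrgprb* and *Mrgprx* windows, 10 of 13 *Vmn1r*, 16 of 22 olfactory receptor, 4 of 6 *Scgb* and 1 of 2 *Fpr* windows. For the last 4 families the shares lay near these backgrounds or below them. In windows at or over the 0.5 threshold with *Klra*, *Skint*, *Esp*, *Ighv* and *Vmn2r* genes the *Pld6* KO level was below WT in 1 of 2, 3 of 3, 4 of 4, 8 of 14 and 48 of 60.

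Of the 10 lowest domains outside the CpG-dense kind 5 had no coding start, and 2 of these 5 were deeply covered. The lowest of all (chr17:39800001-39900000) had a level of 0.0823 in WT, 0.145 in *Pld6* KO but 0.0388 in *Dnmt3L* KO, and 98.1% of its 77128 WT calls lay at sites with 21 or more calls. The window of *Gm10801* and *Gm10800* (chr2:98600001-98700000) alone held 2114209 WT calls, with levels of 0.391, 0.431 and 0.146. A window of chromosome 6 (chr6:114500001-114600000) had levels of 0.129, 0.236 and 0.0229, and of its sequence 76.0% was masked. The part of this depth in the levels was not tested, and so that no single window sets the values below they are medians over windows unless a run or a group of sites is named.

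The low levels of the 3 kinds were made up differently. In CpG-dense domains, single CpG sites with at least 5 WT calls were mostly at one extreme: 55.2% had a level of 0.2 or lower, 31.5% of 0.8 or higher and 13.3% between. Intermediate domains gave 53.4%, 33.0% and 13.6%. In CpG-poor domains 43.2% of the sites were between these bounds, 36.9% low and 19.8% high. These shares rest on 11322 sites with enough WT calls, whereas the CpG-poor domains held 172546 reference CpG sites. In the other windows of the 3 kinds, 14.2%, 15.9% and 23.8% of the sites were between these bounds in WT. The shares at 0.8 or higher were 58.8%, 66.1% and 65.7% there. A larger share between the bounds was thus seen in CpG-poor windows outside the domains too. In *Dnmt3L* KO the share of sites at 0.2 or lower was 77.6%, 77.3% and 87.9% in the domains. It was 56.6%, 57.8% and 72.1% in the other windows.

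CpG-rich tiles, 1-kb stretches with at least 20 CpG sites, held 57.0% of the CpG sites of CpG-dense and 43.4% of those of intermediate domains. The WT level there was 0.184 and 0.093, whereas in the rest of these domains it was 0.752 and 0.748. Away from both such tiles and the 2 kb around gene starts the WT level reached 0.793 and 0.781, lower than in the same sequence of the windows at or over the threshold (0.86 and 0.857). In CpG-poor domains the level was 0.286 in CpG-rich tiles, which held 20.5% of the sites, and still 0.49 in the rest. Cut into 10-kb tiles, a CpG-dense, intermediate and CpG-poor domain had a median of 50%, 40% and 60% of its tiles under 0.5, and at least 80% of the tiles were under 0.5 in 13 of 184, 6 of 409 and 68 of 269 domains. The highest tile of a domain had a median level of 0.908, 0.923 and 0.636. The lowest tile had a median level of 0.133, 0.115 and 0.267. CpG-dense and intermediate domains were thus mosaics of unmethylated and methylated stretches, while the tiles of CpG-poor domains spanned a narrower range of levels. Outside the domains, the lowest tile of a window had a median level of 0.283, 0.415 and 0.567 in the same order. The highest tile there had 0.934, 0.936 and 0.929. A wide range in CpG-dense windows and a narrower one in CpG-poor windows were thus not particular to the domains.

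Measured gene starts were mostly unmethylated in all 3 kinds. Within 500 bp of the coding starts in CpG-dense and intermediate domains, 843 of 960 and 925 of 1043 starts with at least 10 calls in each library had a WT level under 0.1 (87.8% and 88.7%), against 80.6% and 80.8% in the other windows of those kinds. All 34 *Hox*, all 55 histone and all 18 ribosomal protein starts with enough calls did so. The starts of the beta protocadherin genes were higher, with medians of 0.0857 in WT, 0.216 in *Pld6* KO but 0 in *Dnmt3L* KO over 17 starts. In CpG-poor domains a start had a median of 4 CpG sites, and only 41 of 230 could be measured. Of these, 31 (75.6%) had a WT level under 0.1, against 66.6% in the other CpG-poor windows. The median level of the measured starts was 0.00699 in CpG-dense, 0.00585 in intermediate and 0.00549 in CpG-poor domains.

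Domains often lay next to each other. Of the tested neighbours of a domain 29.2% were domains themselves, against 3.75% of all windows, and the share was 53.3% for CpG-poor, 24.5% for CpG-dense and 14.6% for intermediate domains. The 894 domains formed 638 runs, of which 529 were single windows and 109 held 2 or more windows, with 365 windows (40.8%) in all. Of the 16 runs of at least 6 windows 12 were mostly CpG-poor. Of all chromosomes, chromosome 7 had the largest share of low windows (123 of 1366, 9.0%), followed by chromosome 17 (6.86%) and chromosome 19 (6.35%), while chromosome 18 had 20 domains, none of them CpG-poor.

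The longest run spanned 15 windows (chr17:38400001-39900000), with *Esp36*, *Esp34*, *Esp31*, *Esp24* and *Esp23* among its genes, and ended in the deeply covered window named above. Without that window the level of the other 14 was 0.429 (95% interval 0.419 to 0.439) in WT, 0.359 (0.35 to 0.367) in *Pld6* KO and 0.0683 (0.0613 to 0.0759) in *Dnmt3L* KO. In all 14 windows *Pld6* KO was below WT, as it was in 76.6% of all CpG-poor domains. The run as a whole, weighted by that 1 window, had 0.122, 0.164 and 0.0425, which turned the direction for *Pld6* KO.

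The next run spanned 12 windows and the *Klra* cluster, with *Klra6*, *Klra4*, *Klra8*, *Klra9* and *Klra7* (chr6:130000001-131200000). Its level was 0.434 (0.423 to 0.445) in WT, 0.378 (0.369 to 0.388) in *Pld6* KO and 0.0764 (0.0684 to 0.0852) in *Dnmt3L* KO, and 11 of 12 windows were lower in *Pld6* KO. The 10 windows with *Vmn2r102* to *Vmn2r106* (chr17:19600001-20600000) had 0.449, 0.407 and 0.0892, with 8 of 10 lower in *Pld6* KO. A pair of runs of 9 and 8 windows with *Skint* genes (chr4:112400001-113300000 and chr4:113400001-114200000) had 0.432 and 0.458 in WT, 0.388 and 0.376 in *Pld6* KO and 0.0804 and 0.091 in *Dnmt3L* KO, and all their windows were lower in *Pld6* KO. Runs of 8 windows with *Ighv* segments (chr12:115000001-115800000) and with *Vmn2r67* to *Vmn2r71* (chr7:85100001-85900000) were lower by 0.0811 and 0.0681. The intervals of WT and *Pld6* KO did not overlap in any of these runs. This is no test of a difference between genotypes. The intervals cover counting error only, and the runs were chosen by their low WT levels. Beside the counts of lower windows given for these runs, 76.6% of all CpG-poor domains and 67.9% of all CpG-poor windows were lower in *Pld6* KO.

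CpG-dense and intermediate runs went the other way. The run of 7 windows with *Nanos2*, *Foxa3*, *Six5*, *Zfp296* and *Ccdc61* (chr7:18900001-19600000) had levels of 0.377 in WT, 0.44 in *Pld6* KO but 0.164 in *Dnmt3L* KO, and none of its windows was lower in *Pld6* KO. The 3 windows of the *Hoxa* cluster (chr6:52100001-52400000) had 0.232, 0.28 and 0.0815, and the 6 windows around the histone genes (chr13:23200001-23800000) had 0.316, 0.359 and 0.0955. Of the runs of at least 3 windows, all 10 that were mostly CpG-dense and all 14 that were mostly intermediate were higher in *Pld6* KO than in WT. Of the 31 that were mostly CpG-poor 30 were lower, the exception being the longest run, with its deeply covered window. The runs thus went the way of their kinds. Of all tested CpG-dense, intermediate and CpG-poor windows, 6.08%, 30.7% and 67.9% were lower in *Pld6* KO. These calls-pooled differences depend on how sites are weighted, as given below.

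**Figure D2:**
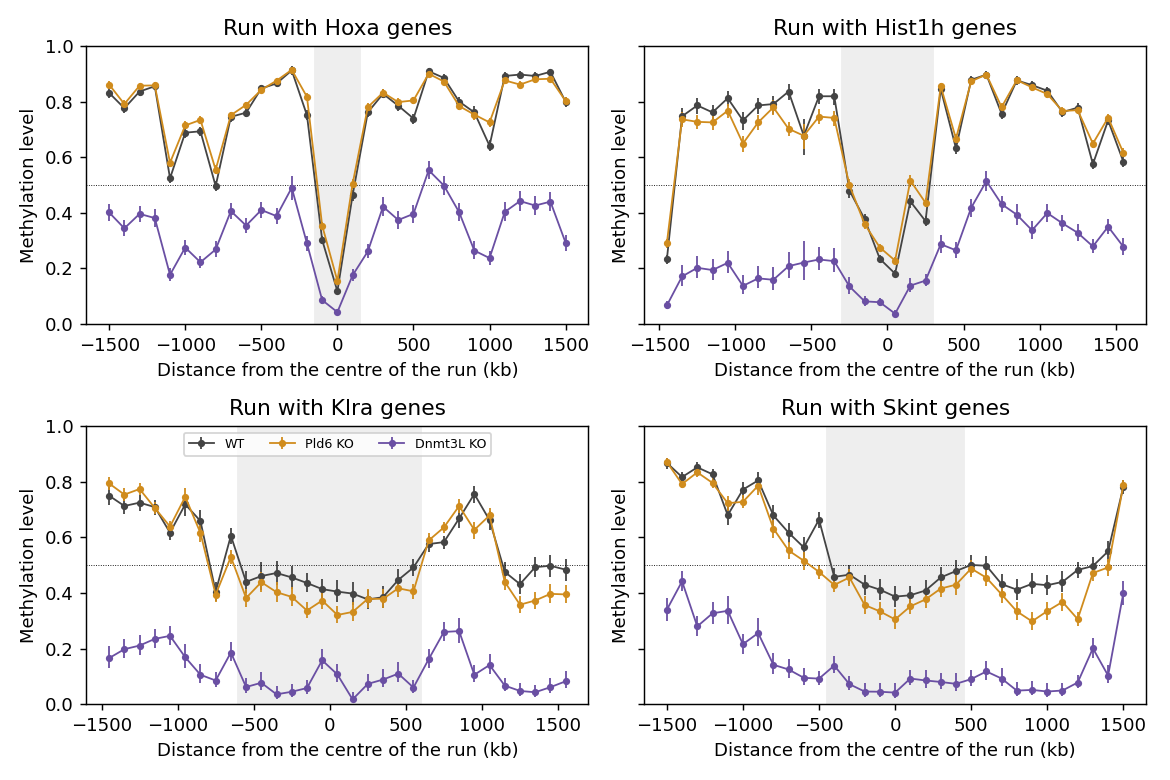
Methylation level of 100-kb windows (y axis, with 95% intervals for counting error) against distance in kb from the centre of the run (x axis) for the runs with *Hoxa*, *Hist1h*, *Klra* and *Skint* genes (shaded), with 1 line per library and the 0.5 threshold dotted. In the *Hoxa* run the lowest window had 0.118 in WT, and in the *Klra* run of 12 windows the WT level ranged from 0.377 to 0.492 and was lower in *Pld6* KO in 11 windows.

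The edges of the domains differed too. Windows that were not domains themselves had a median WT level of 0.644 and 0.653 at 100 kb on either side of CpG-dense domains, and of 0.724 and 0.742 beside intermediate ones. Beside CpG-poor domains it was only 0.583 and 0.588, rising to 0.662 and 0.667 at 500 kb and 0.699 and 0.697 at 1000 kb. All tested windows that were not domains had a median of 0.768. In *Dnmt3L* KO the neighbours of CpG-poor domains were at 0.123 and 0.113, against 0.319 and 0.309 beside CpG-dense domains. The kinds differed away from the domains too. All CpG-poor and CpG-dense windows that were not domains had *Dnmt3L* KO medians of 0.203 and 0.346.

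**Figure D3:**
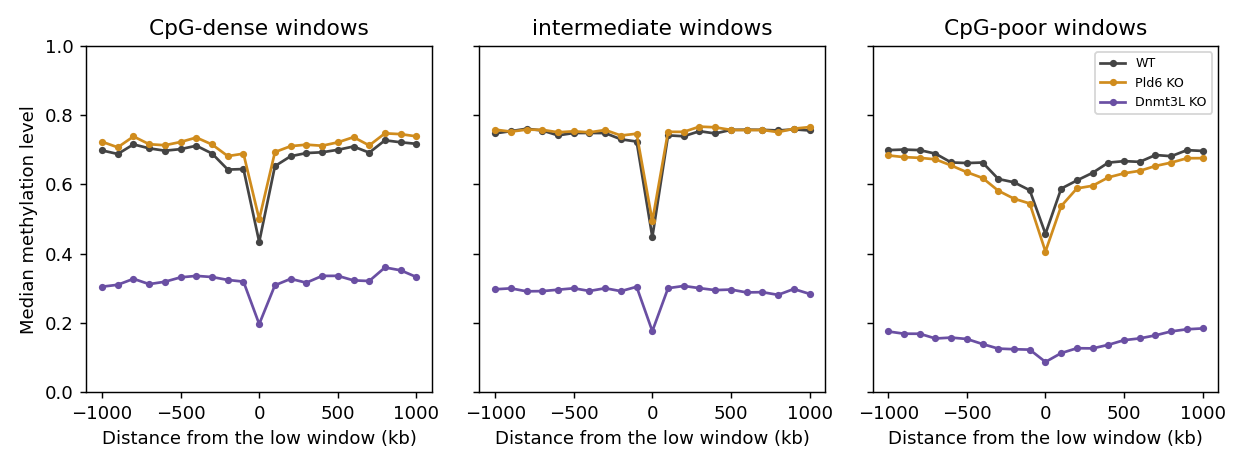
Median methylation level (y axis) against distance in kb from a low window (x axis) for the 3 kinds of domain, with 1 line per library; at distances other than 0, only windows that were not low themselves are included. The dip was narrow around intermediate domains (0.448 in WT at 0 kb and 0.724 at 100 kb to the left) and wide around CpG-poor domains (0.457 and 0.583).

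In *Dnmt3L* KO spermatogonia all 894 domains had a lower level than in WT, as did all 22926 other tested windows. The median level was 0.197 in CpG-dense, 0.176 in intermediate and 0.0875 in CpG-poor domains. The median difference from WT was -0.227, -0.249 and -0.359 against -0.3, -0.401 and -0.565 in the other windows of the same kind, whose WT levels were higher by the rule. As a fraction of the WT level, 0.457, 0.413 and 0.203 remained in the domains and 0.541, 0.46 and 0.263 in the others. A drop of at least 0.3 was seen in 329 of 894 domains (36.8%), against 90.0% of all tested windows. By kind, the drop was seen in 5 of 184 CpG-dense, 75 of 411 intermediate and 249 of 299 CpG-poor domains, against 38.4%, 85.2% and 99.3% of all windows of these kinds. The *Dnmt3L* KO level was under 0.1 in 240 domains, against 4.1% of all tested windows. These were 14 CpG-dense, 42 intermediate and 184 CpG-poor domains, against 1.89%, 0.387% and 8.57% of all windows of these kinds.

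**Figure D4:**
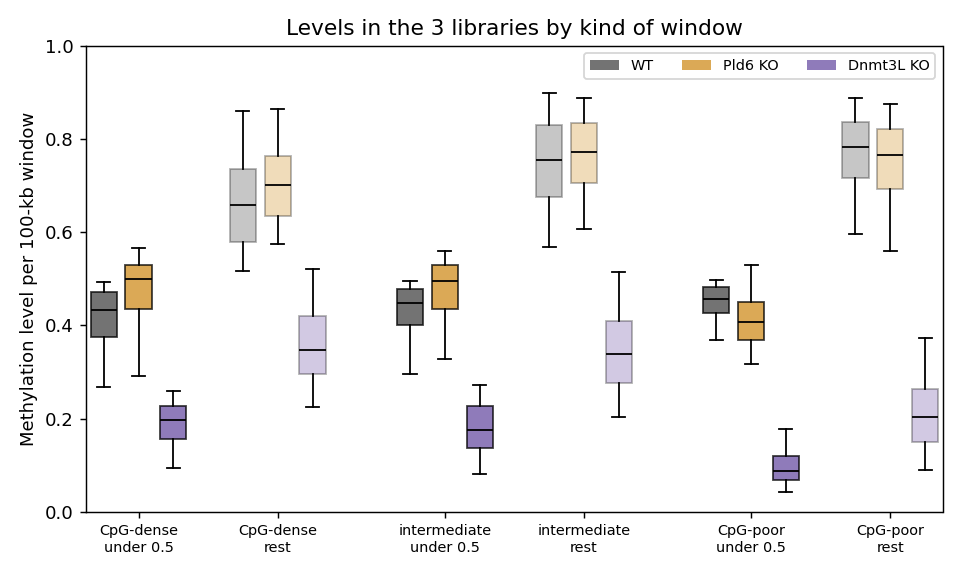
Methylation level per 100-kb window (y axis) in the 3 libraries for the 3 kinds of window, split into domains (under 0.5 in WT) and the rest; boxes show the median and quartiles over windows and whiskers the 5th and 95th percentiles. Medians in the domains were 0.434, 0.448 and 0.457 in WT, 0.499, 0.494 and 0.406 in *Pld6* KO and 0.197, 0.176 and 0.0875 in *Dnmt3L* KO for the CpG-dense, intermediate and CpG-poor kinds.

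In *Pld6* KO spermatogonia the direction followed CpG density. The median difference from WT was 0.06 in CpG-dense, 0.0508 in intermediate and -0.0405 in CpG-poor domains, and 0.0388, 0.014 and -0.0175 in the other windows of each kind. The level was lower than in WT in 1 of 184 CpG-dense, 31 of 411 intermediate and 229 of 299 CpG-poor domains, against 6.08%, 30.7% and 67.9% of all tested windows of these kinds and 46.6% of all tested windows. For the CpG-poor domains this share (76.6%) was thus not far above its background. A drop of at least 0.1 was seen in 28 domains, all CpG-poor, against 2.8% of all tested windows and 6.09% of CpG-poor ones. A rise of at least 0.1 was seen in 5 CpG-dense, 13 intermediate and 6 CpG-poor domains, against 1.22%, 0.508% and 0.272% of all windows of these kinds and 0.424% of all tested windows. The *Pld6* KO level stayed under 0.5 in 574 of 894 domains, comprising 93 CpG-dense, 214 intermediate and 267 CpG-poor ones, against 12.6%, 1.81% and 4.52% of all windows of these kinds and 3.36% of all tested windows.

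**Figure D5:**
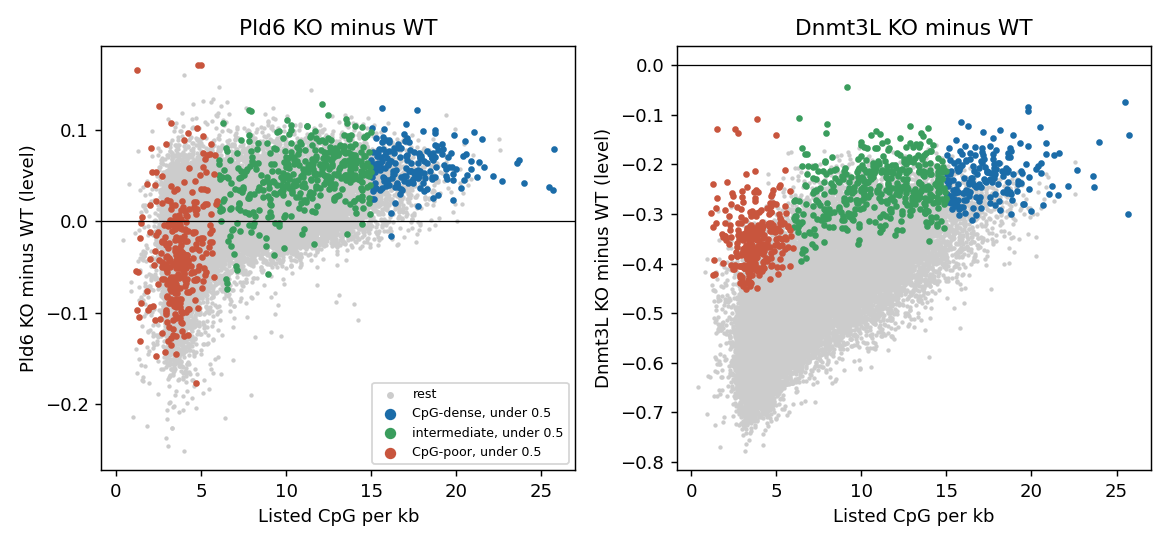
Difference in methylation level from WT (y axis) against listed CpG per kb (x axis) for *Pld6* KO on the left and *Dnmt3L* KO on the right, with 1 point per 100-kb window and the domains coloured by kind. Medians for the CpG-dense, intermediate and CpG-poor domains were 0.06, 0.0508 and -0.0405 in *Pld6* KO and -0.227, -0.249 and -0.359 in *Dnmt3L* KO.

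The higher level in *Pld6* KO shrank when each site, and not each call, had the same weight. By site means over the same windows, the median difference was 0.0151 in CpG-dense and 0.0112 in intermediate domains, and with sites covered in all 3 libraries it was 0.011 and 0.00654, with 44 of 184 and 156 of 411 domains lower in *Pld6* KO. Beside this, 60.1% of WT calls but 56.5% of *Pld6* KO calls of CpG-dense domains fell in CpG-rich tiles, where levels were low, and in intermediate domains these shares were 47.6% and 43.2%. The part of these shares in the difference was not tested further. In CpG-poor domains the difference stood at -0.0561 by site means and -0.0536 over sites covered in all 3 libraries, with 258 and 253 of 299 domains lower. With masked sites left out, and the domains chosen anew by the unmasked calls, the CpG-poor median was -0.00924. With at least 500 calls in each library it was -0.00229, with 18 of 34 domains lower. This drop was thus not seen at either setting at its main size. The *Dnmt3L* KO difference was little affected (-0.242, -0.272 and -0.375 by site means).

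In CpG-poor domains, the drop in *Pld6* KO was larger in repeat-masked than in unmasked sequence. With deeply covered sites left out, masked sites had levels of 0.497 in WT and 0.442 in *Pld6* KO, and unmasked sites 0.429 and 0.418. In the other CpG-poor windows masked sites had 0.772 and 0.698, and unmasked sites 0.777 and 0.782. The drop at masked sites was thus no larger in the domains (-0.0553) than in the other CpG-poor windows (-0.0738). In *Dnmt3L* KO masked and unmasked sites of the CpG-poor domains were both low, at 0.113 and 0.0907.

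Fewer of the CpG sites could be read in these repeat-rich windows. A median of 70.8% of the reference CpG sites was listed in CpG-poor domains, against 95.9% in CpG-dense and 92.6% in intermediate ones and 78.0% in the other CpG-poor windows. The *Pld6* KO difference also varied with depth. Among CpG-poor domains that were not deeply covered, its median was -0.0521 in the 101 domains whose shallowest library gave 300 to 400 calls and -0.0177 in the 28 with at least 500, of which 17 were lower. Those 28 were also denser in CpG, with a median of 5.21 per kb.

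Around the threshold the kinds were mixed. The 3 domains just inside it were the CpG-poor window of *Slc22a27* at 0.4994, the CpG-dense window of *Gata2* at 0.4995 and the intermediate window of *Tmem54*, *Hpca*, *Fndc5*, *S100pbp* and *Yars* at 0.4997. The 3 windows just outside it, all at 0.5, were the windows of *LTO1* and *Ccnd1*, of *Rita1*, *Ddx54*, *Cfap73* and *Rasal1*, and a CpG-poor window of chromosome 3 without coding starts, next to a run of 5 CpG-poor domains (chr3:43400001-43900000). The 95% interval of each of these 6 WT levels included 0.5.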

How the data were processed

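CpG methylation was measured by whole-genome bisulfite sequencing (single-end reads of 100 bases) and 3 files were used, 1 per genotype, each taken as 1 library. The study had further replicates, which were not analysed here. The authors trimmed the reads, aligned them uniquely to mm10 with Bismark at default settings (both also named in the submitters' processing notes, version not given in the sources used here) and deposited, for each CpG, methylated and unmethylated call counts and the methylated fraction, which matched the counts (0 sites differed). The listed sites all had at least 1 call, and unique alignment leaves out part of the repeats. All autosomal sites lay at a reference CpG (0 exceptions).

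Calls were summed in 100-kb autosomal windows with Python 3.11.15, numpy 2.4.6, pandas 2.3.3 and scipy 1.17.1, in code tested on simulated data, and plotted with matplotlib 3.10.9. Sequence and masking came from the GRCm38 reference and genes from GENCODE. The sex chromosomes were not analysed here. Class differences are medians over windows of the window differences. Depth per library ranged from 19289688 to 64076569 calls, and intervals are Wilson 95% intervals for counting error. No test between genotypes was possible with 1 file each. Alternatives covered the call minimum, deep sites, site weighting, window size and position, threshold, density and shared sites.

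The windows, gene lists and rules were chosen with earlier results of these data known. The windows that could be named were those in runs of at least 2 neighbouring domains, the 10 lowest of each class and the 3 on either side of the threshold, with up to 5 coding genes each, genes of a list first. Members of a list were named where at most 10 started in a domain, and deeply covered windows and genes that fell outside these rules were named after their values were seen. The division at 6 CpG per kb and the families so marked were also added then. The lists not described in the report gave 18 of 72 ribosomal protein genes, 2 of 14 maternally methylated imprinted genes (*Plagl1* and *Grb10*), 0 of 4 paternally methylated ones and 6 of 166 rRNA genes with their start in a domain, against 11.9% of all coding starts.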

Additional observations from a re-analysis of the deposited data

How the results depend on the processing

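No replicate could be left out, since 1 file per genotype was used. No paired analysis was possible because 1 file per genotype was used and no result came from a test. Against the main values (184 CpG-dense and 710 other domains, *Pld6* KO differences of 0.06 and 0.0276, *Dnmt3L* KO differences of -0.227 and -0.291, and 329, 28 and 574 domains lower by at least 0.3 in *Dnmt3L* KO, lower by at least 0.1 in *Pld6* KO and under 0.5 in *Pld6* KO), windows of 50 kb gave 653 and 1981 domains, a *Pld6* KO difference of 0.0403 in the other domains, *Dnmt3L* KO differences of -0.209 and -0.264, and counts of 728, 69 and 1676. A WT threshold of 0.45 gave 105 and 341 domains, *Dnmt3L* KO differences of -0.207 and -0.26, and counts of 120 and 9 for the drops. At least 500 calls gave 440 other domains, differences of 0.0496 and -0.251 in them for *Pld6* KO and *Dnmt3L* KO, and counts of 101, 1 and 331, and moved the *Pld6* KO difference in CpG-poor domains from -0.0405 to -0.00229. The mean of the site levels gave *Pld6* KO differences of 0.0158 in CpG-dense and -0.00295 in other domains, a reversal, and -0.31 for *Dnmt3L* KO in the latter. These values choose the domains anew by the site mean, unlike the site means over the same windows in the report. The next alternatives were chosen after seeing the data. Site means over sites covered in all 3 libraries gave 0.012 and -0.00261 for *Pld6* KO, again a reversal in the other domains, and -0.238 and -0.299 for *Dnmt3L* KO. Leaving out masked sites, with the domains again chosen anew, gave 0.0415 and -0.271 in the other domains, and -0.00924 for *Pld6* KO in the CpG-poor ones. Calls pooled over the class gave 0.0377 and -0.243 there, and 0.0323 in CpG-poor domains, where the median had been -0.0405, and 1 window held 2114209 of the 2416478 WT calls of that kind. The cause of the other changes was not tested. Depth limited the CpG-poor domains most, with a median of 335 *Dnmt3L* KO calls each.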
